A study of Mus musculus with 3 samples.

Results

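The levels of 46 genes of ribosome biogenesis and the nucleolus were measured by RNA sequencing in 3 libraries of mouse splenic T lymphocytes. The genes were chosen by name, as a list of nucleolar proteins and ribosome assembly factors, with earlier results of these data known. All 46 were found among the 44788 gene symbols of the deposited count table. The cells came from spleens of female BALB/c mice of 6 to 8 weeks, were selected with magnetic beads against the T cell surface protein CD90.2 and were kept in RPMI 1640 medium with fetal bovine serum. Every library had LZ-8, an immunomodulatory protein of the fungus Ganoderma lucidum, for 15 h. The labels give no dose and are silent on whether mice were pooled and on whether each replicate had a mouse or culture of its own, so the spread between replicates may be technical. Untreated cells were not analysed here, and none of the values below measures a response to LZ-8.

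Ribosomes are built in the nucleolus. RNA polymerase I transcribes a long precursor of ribosomal RNA, small nucleolar ribonucleoproteins (snoRNPs) guide chemical changes of its bases, and large sets of assembly factors fold and cut it into the RNAs of the small (40S) and large (60S) subunit. Resting T cells make few ribosomes, and stimulated T cells enlarge their nucleoli and make many more before they divide.

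The libraries held 19041670, 12669690 and 14715992 counts in replicates 1, 2 and 3. A level is given in CPM, the reads of a gene scaled to a library total of 1000000 reads, and a count of 0 would allow up to 0.158, 0.237 and 0.204 CPM in replicates 1, 2 and 3. The label of T cells was checked on 10 T cell genes, all of which had at least 100 CPM and which summed to 4087 ± 84.0 CPM (SD, n = 3). Markers of other cells were low in every library. The 6 B cell genes summed to 16.7 to 18.5 CPM, the 6 monocyte and macrophage genes to 3.63 to 4.55 CPM with 3 at 0 (Csf1r, C1qa and Fcgr1), and the 4 natural killer cell genes to 16.9 to 19.98 CPM, nearly all Eomes, with Klra8 at 0. The 5 neutrophil genes summed to at most 0.272 CPM with Elane and Ltf at 0. In bulk RNA, fewer cells that express a gene and less of its RNA per cell cannot be told apart.

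Some members carry a second product of the pathway within their own gene. In 8 of the 46 members the GENCODE annotation places 29 snoRNA genes, 8 of them in Taf1d, 5 in Nop56, 4 in Nop58, 3 each in Ncl, Gnl3 and Wdr43, 2 in Ppan and 1 in Dkc1. Of these, 10 had a row of their own in the table and 6 reached a mean of 1 CPM. Their sequences are shown because they are the guide RNAs that work with the same snoRNPs whose proteins are members here. Capitals mark the C box letters (TGATGA or GATGA) and D box letters (CTGA) of box C/D RNAs, to which the core proteins bind, and the ACA near the end of the H/ACA RNA Snora75. Sequences are GENCODE transcripts on GRCm38, 5′ to 3′.
Snord82: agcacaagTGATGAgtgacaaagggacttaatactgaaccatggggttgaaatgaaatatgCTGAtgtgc
Snora75: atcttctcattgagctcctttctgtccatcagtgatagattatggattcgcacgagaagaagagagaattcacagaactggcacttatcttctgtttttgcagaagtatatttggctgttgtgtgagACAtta
Snord57: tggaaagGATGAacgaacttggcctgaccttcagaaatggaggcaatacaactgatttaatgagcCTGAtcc
Snord110: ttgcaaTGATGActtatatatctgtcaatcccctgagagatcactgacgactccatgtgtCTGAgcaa
Snord69: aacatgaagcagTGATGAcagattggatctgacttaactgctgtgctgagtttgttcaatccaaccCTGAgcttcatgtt
Snord19: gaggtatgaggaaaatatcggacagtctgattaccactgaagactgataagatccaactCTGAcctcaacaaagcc

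Snord82 lies in Ncl at chr1:86356261-86356330 (minus strand), outside every annotated exon of the gene, and had 8.77, 5.29 and 6.46 CPM in replicates 1, 2 and 3. Snora75, also in Ncl, at chr1:86351169-86351301 (minus strand), had 2.05, 1.74 and 3.06 CPM. Snord57 lies in Nop56 at chr2:130278016-130278087 (plus strand) and had 4.201, 3.71 and 5.30 CPM. These 3 were the snoRNAs with the most reads, and each had far fewer reads than its host gene. Snord110, at chr2:130275506-130275573 (plus strand) in an intron of Nop56, averaged 1.91 ± 0.634 CPM. Snord69 (chr14:31014287-31014366, minus strand) and Snord19 (chr14:31016206-31016281, minus strand), both in Gnl3, averaged 2.02 ± 0.583 CPM and 1.88 ± 0.353 CPM (SD, n = 3). The C box letters were not found in Snord19. Snora75, Snord57, Snord69 and Snord19 lie wholly within annotated exons of host transcripts, so reads of the host and of the snoRNA cannot be told apart there. How well libraries of this kind capture such short RNAs was not tested.

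Promoter sequence was examined as a property that the choice of members did not use. RefSeq (GRCm38.p6) gave 250 bases before to 50 bases after the start for 40 of the 46 members, and not for Rrs1, Tcof1, Npm1, Bop1, Rrp12 and Fbl. The E-box letters CACGTG, bound by MYC and MAX and by other factors of their class, were in 7 of the 40 promoters (17.5%), compared with 12.5% of the promoters of tested genes and 8.09% of all promoters in the table. The letters CCGGAAG, a core of sites of the ETS family of transcription factors, were in 14 of 40 (35.0%), compared with 22.2% of tested genes and 9.93% of all. The letters AAGATGGC of YY1 and the palindrome of NRF1 were in 0 of 40, compared with 5.84% and 2.69% of tested genes and 3.19% and 1.07% of all. Both strands were searched, no motif overlapped another in the promoters printed, and shares were set side by side without a test. The 3 member promoters that hold both the E-box and the ETS letters are shown with these letters in capitals.
Ltv1: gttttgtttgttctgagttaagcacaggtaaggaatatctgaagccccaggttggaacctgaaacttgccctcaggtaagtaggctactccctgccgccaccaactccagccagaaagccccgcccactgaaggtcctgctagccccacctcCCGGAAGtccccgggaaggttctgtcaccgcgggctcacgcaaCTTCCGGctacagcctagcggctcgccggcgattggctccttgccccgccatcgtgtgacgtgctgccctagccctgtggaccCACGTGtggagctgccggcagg
Nop2: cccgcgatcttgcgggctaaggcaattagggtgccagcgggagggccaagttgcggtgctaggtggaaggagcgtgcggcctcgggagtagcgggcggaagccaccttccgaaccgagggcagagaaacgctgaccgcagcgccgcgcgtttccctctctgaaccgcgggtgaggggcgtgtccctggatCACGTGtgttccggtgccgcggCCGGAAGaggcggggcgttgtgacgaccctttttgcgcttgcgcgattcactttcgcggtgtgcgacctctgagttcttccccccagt
Rrn3: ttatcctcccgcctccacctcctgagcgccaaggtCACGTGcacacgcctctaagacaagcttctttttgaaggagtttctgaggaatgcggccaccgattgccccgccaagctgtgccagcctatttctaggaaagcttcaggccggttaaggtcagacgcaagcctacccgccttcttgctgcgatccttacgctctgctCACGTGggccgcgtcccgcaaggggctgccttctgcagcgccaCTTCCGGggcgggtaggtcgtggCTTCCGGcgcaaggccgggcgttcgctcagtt

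The promoter of Ltv1 (chr10:13193088-13193387, minus strand) holds the ETS letters from positions -98 and -55 and the E-box from position 29, counted from the start. That of Nop2 (chr6:125131633-125131932, plus strand) has the E-box from -60 and the ETS letters from -38, and that of Rrn3 (chr16:13780449-13780748, plus strand) has E-boxes from -215 and -48 and ETS letters from -5 and 19. The other E-box promoters were those of Mybbp1a, Pes1, Utp20 and Wdr43. The 7 members with an E-box had a median level of 295 CPM (106 to 1138 CPM), against 151 CPM (47.2 to 1784 CPM) for the 33 without one. The 14 members with the ETS letters had a median of 118 CPM (47.2 to 489 CPM), against 195 CPM (61.8 to 1784 CPM) for the 26 without them. In both comparisons the ranges overlapped. These levels are CPM and not CPM per kilobase, so the lengths of the transcripts enter both comparisons. Whether either gap remains per kilobase was not tested.

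All 46 members were expressed in every library, and 37 had at least 100 CPM. The median member had 180 CPM, while the median of the 13500 genes tested (at least 1 CPM in at least 2 libraries) was 27.0 CPM. Every member was above that median, and 24 of the 46 were above percentile 90 of tested genes by CPM. Levels were also scaled per kilobase of principal transcript, which depends on the annotated length. The median member then had 72.4 CPM per kilobase, and the median of the 10655 tested genes with such a length had 12.4. By this measure 45 of 46 members were above the median gene and 26 were at or above percentile 90. Wdr12, at 6.17 CPM per kilobase, was the exception, at percentile 31.8. The value of 6.17 uses an annotated principal transcript of 10012 bases. Over its coding sequence of 1269 bases Wdr12 had 48.7 CPM per kilobase and ranked 43 among the 46 members. Levels of all tested genes over coding sequence were not computed, so 48.7 cannot be set beside the median of 12.4. Together the members took 1.27%, 1.27% and 1.26% of all reads in replicates 1, 2 and 3 (1.27 ± 0.00110%, SD, n = 3), with exact 95% intervals of 1.262 to 1.272%, 1.260 to 1.272% and 1.259 to 1.271% that cover counting error only. The share was the same in the 3 libraries within these intervals.

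**Figure D1:**
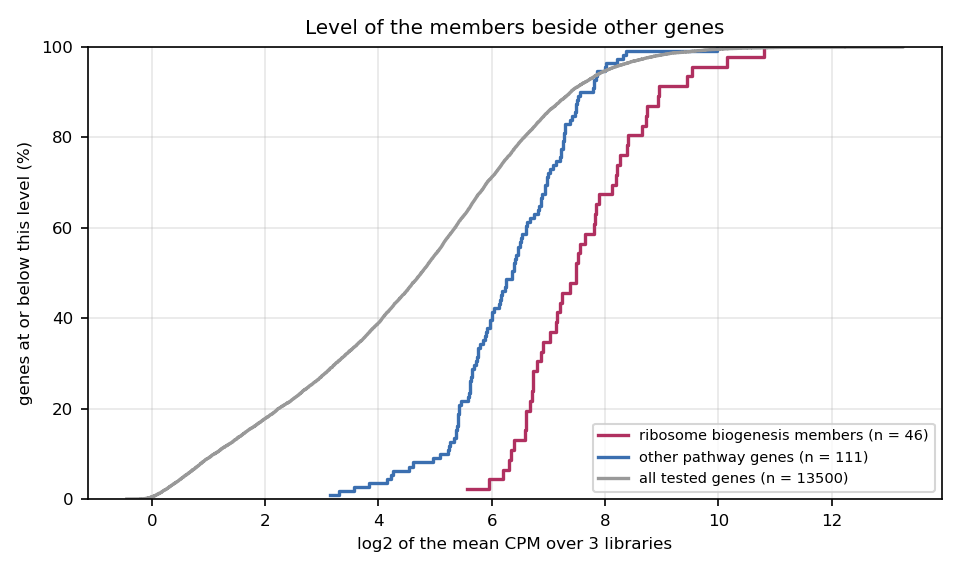
Cumulative share of genes (vertical axis, in percent) by log2 of the mean CPM over 3 libraries (horizontal axis) for the 46 members, 111 other genes of the pathway and all 13500 tested genes. The curve of the members lies to the right of the other curves over most of its course, with a median of 180 CPM, against 81.8 CPM for the other pathway genes and 27.0 CPM for all tested genes.

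The nucleolar proteins with several roles took the most reads. Ncl encodes nucleolin, an RNA-binding protein of the dense fibrillar part of the nucleolus, and lies at chromosome 1, 86344719 to 86359400 (minus strand, GRCm38). Ncl had 1799, 1794 and 1758 CPM in replicates 1, 2 and 3 (1784 ± 22.5 CPM, SD, n = 3) and so held 14.2%, 14.2% and 13.9% of the reads of all members. Mybbp1a, a MYB-binding protein that also regulates ribosomal RNA synthesis, had 1147, 1085 and 1181 CPM. Npm1 encodes nucleophosmin, a histone and ribosome chaperone of the outer nucleolus, and had 716, 684 and 690 CPM. The values of each of these 3 genes lay close together, with replicate 2 lowest for Npm1 and Mybbp1a. Tcof1, the treacle protein that links polymerase I transcription to rRNA modification, had 498, 487 and 498 CPM. Nolc1, the chaperone of snoRNPs known as Nopp140, had 406, 399 and 398 CPM. Gnl3, the GTPase nucleostemin, had 177, 185 and 177 CPM, the fewest reads of the 6. Per kilobase of exon union the order was headed by Npm1 (261 ± 6.31 CPM per kilobase), Mybbp1a (196 ± 8.40) and Ncl (175 ± 2.21, SD, n = 3), and the order of these 3 was the same per kilobase of principal transcript. Per kilobase of coding sequence Ncl was first, at 841 ± 10.6, and Npm1 second, at 795 ± 19.2, but with the reads of the pseudogene copies of Npm1 added Ncl was at 0.630-fold the level of Npm1 over coding sequence.

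**Figure D2:**
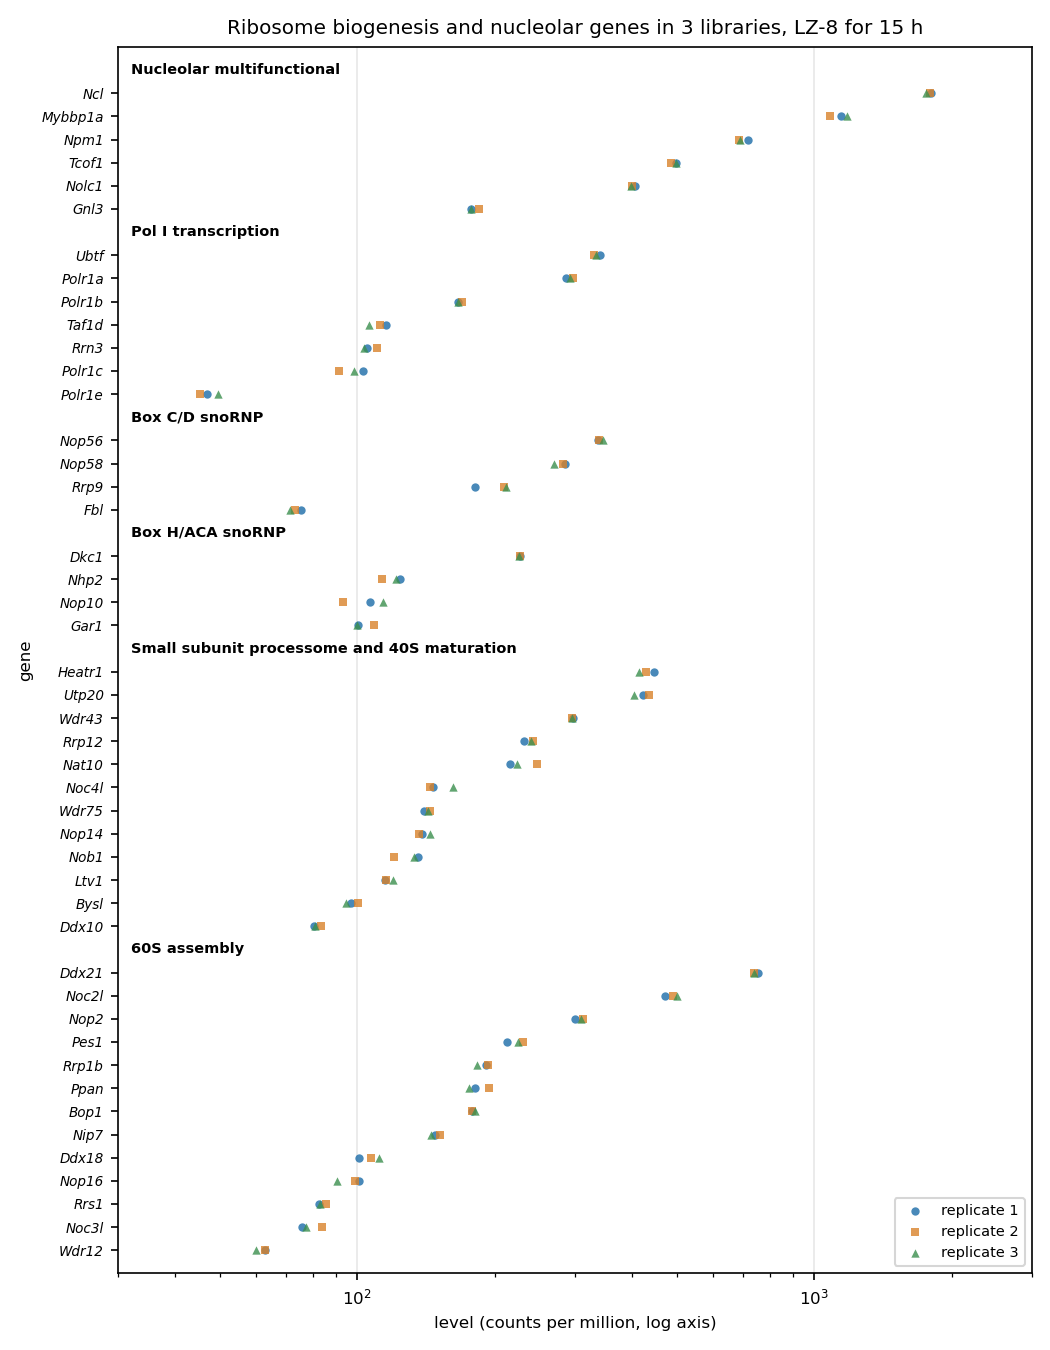
Level in CPM (horizontal log axis) of each of the 46 members in replicates 1, 2 and 3, 1 point a library, grouped by role and ordered by mean within a group. Levels run from 47.2 CPM (Polr1e) to 1784 CPM (Ncl), and the 3 points of a gene lie close together beside the distances between genes.

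Genes of RNA polymerase I transcription were present at 47.2 to 334 CPM. Polr1a, the largest catalytic subunit, had 286, 296 and 292 CPM, and Polr1b, its catalytic partner, had 166, 170 and 166 CPM. Polr1c, a subunit shared with RNA polymerase III, had 103, 91.3 and 98.5 CPM. Polr1e, the PAF53 subunit, had 46.9, 45.2 and 49.5 CPM, the fewest reads of all members. The remaining genes of the group encode factors that bring the polymerase to ribosomal DNA. Ubtf, the upstream binding factor that keeps ribosomal genes open, had 340, 329 and 332 CPM. Rrn3 (TIF-IA), which makes the polymerase competent to start, had 105, 111 and 104 CPM, and Taf1d, a subunit of the selectivity complex SL1, had 116, 112 and 106 CPM. None of the 7 passed the test for differences between the libraries described below. Per kilobase Polr1a and Polr1b differed little, with a ratio of 0.852 over the exon union, 0.756 over principal transcripts and 1.15 over coding sequence. Polr1e stood at 15.8 ± 0.728 CPM per kilobase of principal transcript and Polr1c at 74.2 ± 4.39 (SD, n = 3).

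The box C/D snoRNP carries out 2′-O-methylation of ribosomal RNA. Nop56, a core scaffold protein, had 337, 339 and 346 CPM, and its paralog Nop58 had 285, 282 and 270 CPM. Rrp9, the protein specific to the U3 snoRNP, had 181, 210 and 211 CPM, with replicate 1 below the others. Fbl encodes fibrillarin, the methyltransferase of the complex, and had 75.2, 72.9 and 71.4 CPM, the fewest reads of the 4. Per kilobase Fbl was also below its partners, at 0.209-fold the level of Nop56 over the exon union (log2 ratios of -2.20, -2.25 and -2.31 in replicates 1, 2 and 3), 0.337-fold over principal transcripts and 0.381-fold over coding sequence. The value changed with the reads of a pseudogene. The processed pseudogene Gm5812, which shares 19.6% of the 31-mers (stretches of 31 bases) of Fbl, had 186, 186 and 181 CPM, which is 2.52 times the level of Fbl itself. With the reads of Gm5812 added, Fbl was at 0.736-fold the level of Nop56 over the exon union and at 1.34-fold over coding sequence. Reads were added on the side of Fbl only. Nop56 shares 22.4% of its 31-mers with other genes, and its processed pseudogenes, which hold up to 14.4% each, have no counts in these data. Nop56 was at 3.21-fold the level of Nop58 over the exon union and at 1.11-fold over principal transcripts, and the length of Nop58 is 10758 bases by the union and 1713 bases by the principal transcript.

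The box H/ACA snoRNP converts uridines of ribosomal RNA to pseudouridine, and its proteins also stabilise telomerase RNA. Dkc1, the pseudouridine synthase dyskerin, had 228, 228 and 226 CPM, the least variable of the 4 with a coefficient of variation of 0.373%. For Dkc1 counting error alone gives 1.71%, so with 3 libraries the smaller observed spread does not show unusually steady expression. Nhp2 had 124, 113 and 122 CPM and Gar1 had 100, 109 and 99.8 CPM. Nop10, the smallest of the core proteins, had 107, 93.1 and 114 CPM, the widest relative spread of all 46 members with a coefficient of variation of 9.996%. The genes encode subunits of 1 particle, and how far apart their levels lay depended on the length used. Per kilobase of exon union Dkc1 was at 0.528-fold the level of Nhp2, 0.587-fold that of Nop10 and 0.919-fold that of Gar1. Per kilobase of principal transcript, a length chosen after seeing the data, the levels lay closer together, though Dkc1 was still at 0.705-fold the level of Nhp2. Dkc1 stood at 81.0 ± 0.302 CPM per kilobase, Gar1 at 80.9 ± 3.92, Nop10 at 94.2 ± 9.42 and Nhp2 at 115 ± 5.48 (SD, n = 3). Over coding sequence Nop10 and Nhp2, which have the shortest coding sequences, stood above the others, at 544 ± 54.4 and 261 ± 12.4 CPM per kilobase, while Dkc1 and Gar1 remained level at 149 ± 0.555 and 148 ± 7.19. Dkc1 to Gar1 was the pair whose log2 ratio lay nearest 0 over principal transcripts, with a fold of 1.001.

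The 12 genes of the small subunit processome and of 40S maturation had a median of 147 CPM. The large scaffold proteins took the most reads. Heatr1 (UTP10 in yeast) had 447, 429 and 414 CPM and Utp20 had 422, 436 and 404 CPM. Wdr43, a subunit of the early t-UTP complex that joins transcription to processing, had 296, 295 and 296 CPM, the smallest relative spread of all 46 members with a coefficient of variation of 0.267%. Wdr75, of the same complex, had 140, 145 and 143 CPM. Per kilobase Wdr43 was above Wdr75 in each library, by 2.13-fold over the exon union, 1.77-fold over principal transcripts and 2.54-fold over coding sequence. Nat10, the acetyltransferase that modifies cytidines of 18S ribosomal RNA, had 216, 248 and 224 CPM. Rrp12, an export factor of pre-ribosomes, had 232, 242 and 240 CPM. Nop14 had 139, 136 and 144 CPM and its partner Noc4l had 146, 144 and 162 CPM. In Nop14 and Noc4l replicate 3 was the highest library, in Nat10 and Rrp12 replicate 2. Per kilobase Nop14 was at 0.882-fold the level of Noc4l over the exon union, 0.712-fold over principal transcripts and 0.557-fold over coding sequence. The helicase Ddx10 had 80.6, 83.1 and 80.7 CPM. Among the late 40S factors, Bysl had 96.7, 100 and 94.7 CPM, Ltv1 had 115, 116 and 120 CPM, and Nob1, the nuclease that makes the last cut of 18S ribosomal RNA, had 136, 121 and 133 CPM. Replicate 2 was the low library for Nob1. Bysl shares exon bases with the cyclin gene Ccnd3 (83.7 CPM) on the opposite strand, so its level is uncertain.

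The 13 genes of 60S assembly had a median of 179 CPM. Ddx21, a helicase that acts both in polymerase I transcription and in snoRNA release, had 753, 740 and 740 CPM. Nop2, a methyltransferase of the large ribosomal RNA known in human cells as the proliferation antigen p120, had 300, 312 and 309 CPM. Rrp1b had 191, 193 and 183 CPM and Ppan had 181, 194 and 175 CPM. Replicate 1 was the highest library for Ddx21 and the lowest for Nop2, and replicate 2 was the highest for Nop2, Rrp1b and Ppan. Nip7 had 148, 152 and 145 CPM, and Nop16 had 100.8, 98.9 and 90.2 CPM. Rrs1, needed for the 5S particle to join in yeast, had 82.3, 85.4 and 83.0 CPM. The helicase Ddx18 had 101.0, 107 and 111 CPM. It is among the members whose reads cannot be assigned with confidence, since 65.5% of its 31-mers occur in transcripts of another gene.

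The pairs and trios known to act as complexes in 60S assembly were in part unequal in level. Noc2l and Noc3l, whose yeast counterparts form a dimer on the pre-60S particle, differed under every length used. Noc2l (chromosome 4, 156236010 to 156247616, plus strand) had 472, 492 and 502 CPM and Noc3l (chromosome 19, 38788128 to 38819237, minus strand) had 75.6, 83.9 and 77.1 CPM. Noc2l was above Noc3l in each library, by 8.60-fold per kilobase of exon union (log2 ratio 3.10 ± 0.08, SD, n = 3), 8.85-fold per kilobase of principal transcript and 6.67-fold per kilobase of coding sequence. Noc2l overlaps Samd11, a gene on the opposite strand that has 19.9% of the 31-mers of Noc2l in common and had 0.907 CPM. The PeBoW complex of Pes1, Bop1 and Wdr12 showed levels of 213, 231 and 225 CPM for Pes1, 179, 178 and 181 CPM for Bop1, and 62.7, 62.7 and 59.9 CPM for Wdr12. Pes1 was above Bop1 per kilobase in each library, with a fold of 1.22 over the exon union, 1.06 over principal transcripts and 1.55 over coding sequence. With the reads of the Pes1 pseudogene copies described below added, the fold was 1.57 over the exon union and 1.99 over coding sequence. Wdr12 lay far below both, at 0.0853-fold the level of Bop1 over the exon union. Its annotated transcript is very long, and over coding sequence the fold was 0.596.

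**Figure D3:**
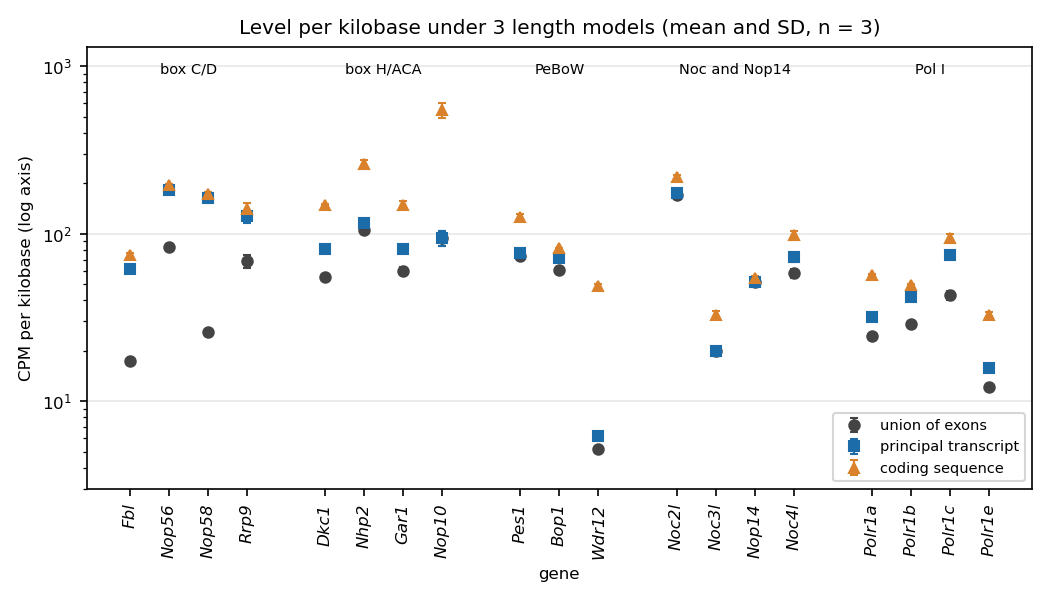
Level in CPM per kilobase (vertical log axis, mean with SD as bars, n = 3) of members that act in 1 complex, scaled by the union of exons, the principal transcript or the longest coding sequence. Noc2l lies above Noc3l and Wdr12 below Bop1 under every scaling, while Nop58 moves from 25.9 to 163 and 173 CPM per kilobase with the length used.

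Over all 16 subunit pairs the log2 ratio kept 1 sign in every library and under 4 choices of length for 11 pairs, and turned under at least 1 choice for 5. With 3 libraries the exact two-sided sign-flip permutation test cannot go below p = 0.25, and all 16 ratios gave p = 0.25, raw and adjusted over the 16. The order of all 46 members per kilobase also depended on length. The rank correlation between the orders over the exon union and over principal transcripts was 0.76 (Spearman, across 46 genes of the same libraries, as a description), and 13 members had an exon union over 1.5 times as long as the principal transcript. Wdr12 (5.17 ± 0.133) and Polr1e (12.1 ± 0.558 CPM per kilobase of exon union) stood lowest. Of the 45 neighbouring pairs in that order, 29 had ranges over the libraries that overlapped. Overlap of ranges leaves out that both genes of a pair were measured in the same libraries. Bysl and Rrn3, for example, had overlapping ranges but differed within libraries by 0.572 ± 0.178 CPM per kilobase (mean and SD, n = 3).

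Processed pseudogenes, which are copies of a spliced RNA inserted elsewhere in the genome, held many reads beside Fbl, Npm1, Ddx18 and Pes1. Copies were taken where a processed pseudogene in the table held at least 5% of the 31-mers of a member, which gave copies for 5 members, and this rule and the copies named were chosen after values were seen. Beside Npm1 the table lists 5 copies that together had 478, 458 and 482 CPM, which is 0.679 times the level of Npm1, and the highest, Gm9118, had 333 ± 6.85 CPM. Beside Ddx18 there were 2 copies with 100.8, 99.8 and 106 CPM, which is 0.959 times its own level. Nearly all of that came from Gm16433. Beside Pes1 there were 2 copies with 65.3, 62.0 and 65.2 CPM, or 0.288 times its level, and beside Rrs1 there were 3 copies with few reads, at most 1.31 CPM. Below the limit of 5% lay Gm4879, which holds 4.60% of the 31-mers of Wdr12 and had 15.9 CPM, and Gm13487, which holds 4.31% of those of Taf1d and had 12.7 CPM. Whether these reads stem from the parent genes was not tested, since the rule for reads that map to several places is not given in the sources used here. Fbl also shares 21.3% of its 31-mers with annotated transcripts of Tulp4, a gene at 63.2 CPM. In all, 15 of the 46 members share at least 5% of their 31-mers with another gene, and 14 overlap, in exons, a protein-coding gene on the opposite strand. With the copies added the members took 1.35% of reads, against 1.27% without them.

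**Figure D4:**
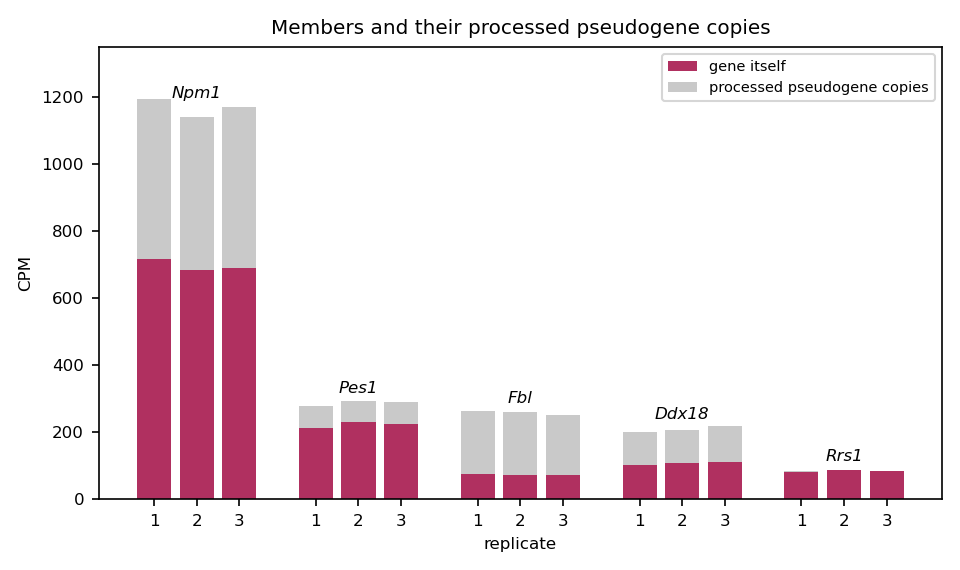
Level in CPM (vertical axis from 0) in replicates 1, 2 and 3 of 5 members (lower bar segment) and of their processed pseudogene copies in the table (upper segment). The copies of Fbl had 184 ± 3.05 CPM, more than Fbl itself with 73.2 ± 1.91 CPM, and those of Rrs1 can hardly be seen at 1.13 CPM.

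The libraries were then compared with each other. Gene by gene, the likelihood-ratio test of edgeR, run at a dispersion of 0, asks whether counts differ between libraries by more than counting error, and so compares these libraries and not conditions. At an adjusted p under 0.05 (Benjamini-Hochberg over 13500 genes), 12 of the 46 members (26.1%) varied. The same call was made for 13.7% of all tested genes, and for 25.2% of the 4899 tested genes within the members' range of CPM, where more reads make small differences visible. The members' share was thus near that of genes of like level. The varying members were Npm1 and Mybbp1a of the 6 nucleolar proteins, Rrp9 of the 4 box C/D genes, Nop10 of the 4 box H/ACA genes, Utp20, Heatr1, Nat10, Noc4l and Nob1 of the 12 small subunit genes, and Pes1, Noc2l and Ppan of the 13 genes of 60S assembly. The 7 polymerase I genes had 0 calls, although Polr1c missed the threshold narrowly (adjusted p = 0.0504 in edgeR's likelihood-ratio test) and passed it under 6 of 9 alternatives, a chi-square test among them (adjusted p = 0.0484). In 60S assembly Ddx18 and Nop16 also missed it narrowly (edgeR adjusted p = 0.0504 and 0.0619), and they passed under 2 and 3 alternatives.

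The differences were small. Across all members the median range between the highest and lowest library was 0.07 log2 units, against 0.17 for all tested genes. The range includes counting error, which is larger where reads are fewer. The tested genes had a median of 27.0 CPM and the members of 180 CPM, and ranges at like level were not compared. The median coefficient of variation of the members was 2.84% where counting alone gives 1.93%. Nop10 had the widest range, 0.29 log2 units (adjusted p = 1.50e-05 in edgeR's likelihood-ratio test), with replicate 2 lowest and replicate 3 highest. Rrp9 ranged over 0.23 log2 units (edgeR adjusted p = 5.11e-10), with replicate 1 below the other libraries. Nat10 ranged over 0.20 log2 units with replicate 2 highest (edgeR adjusted p = 1.93e-06). Mybbp1a had a narrower range of 0.13 log2 units but far more reads, and the smallest edgeR adjusted p of the members, 2.48e-12. By median deviation no library stood apart for the group as a whole. The median deviation of the members from their mean was -0.01, 0.01 and -0.0018 log2 units in replicates 1, 2 and 3. Highest in replicates 1, 2 and 3 were 13, 20 and 13 members, beside 4124, 4637 and 4739 of the 13500 tested genes. Among the 111 other pathway genes the counts were 22, 48 and 41. By role the members' counts were 2, 8 and 3 for 60S assembly and 2, 6 and 4 for the small subunit genes. They were 3, 1 and 2 for the nucleolar proteins with several roles and 3, 3 and 1 for polymerase I transcription. Box C/D had 2, 0 and 2 and box H/ACA 1, 2 and 1. Only 12 of the 46 members varied, and differences between roles were not tested.

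**Figure D5:**
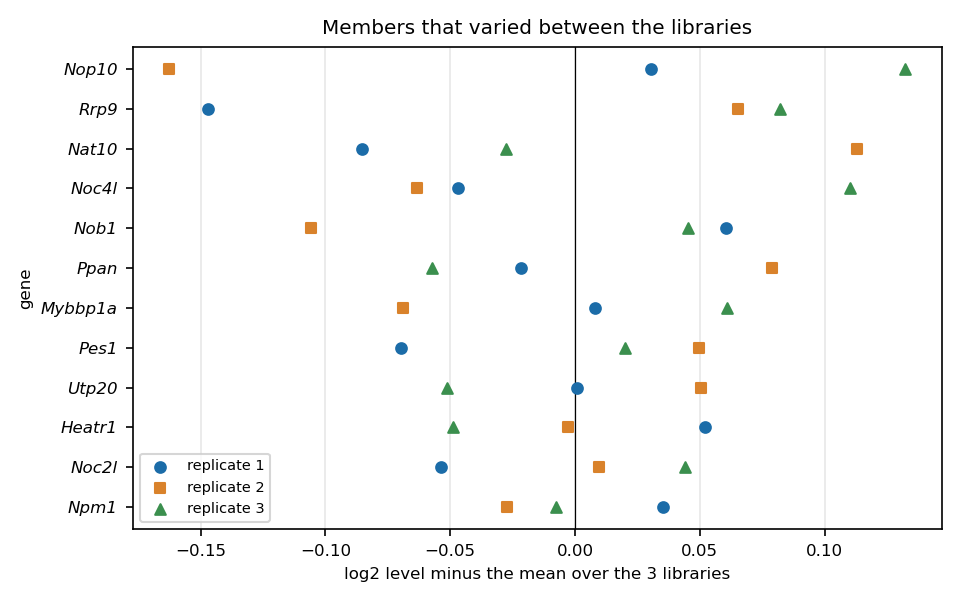
Log2 level of each library minus the mean over the 3 libraries (horizontal axis) for the 12 members that varied between libraries, ordered by range. Nop10 has the widest range, 0.29 log2 units, and Npm1 the narrowest of the 12, 0.06, and no replicate is the highest for all 12 genes.

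Mybbp1a passed with each library left out in turn, and the other calls were each lost without at least 1 library. Rrp9 lost the call without replicate 1 (edgeR adjusted p = 0.855), Noc4l without replicate 3 (edgeR adjusted p = 0.898), and Nop10, Nat10 and Nob1 without replicate 2 (edgeR adjusted p = 0.191, 0.342 and 0.882). Npm1 and Pes1 lost it without replicate 1 or replicate 2, Heatr1 and Noc2l without replicate 1 or replicate 3, and Utp20 and Ppan without replicate 2 or replicate 3. With 1 library left out, 7, 7 and 8 members varied without replicates 1, 2 and 3. The share of all tested genes called was then 8.48%, 9.03% and 5.61%, which is not a share at the members' level.

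The rest of the pathway was also expressed. A further 111 genes of ribosome biogenesis were listed by role, and all 111 passed the minimum level, with a median of 81.8 CPM and 43 at or above 100 CPM. Of these, 24 (21.6%) varied between the libraries, beside 13.7% of all tested genes, with a median range of 0.12 log2 units. Calls are more frequent at higher levels, and no share was drawn for tested genes at the level of these 111. The 28 further genes of the small subunit processome had 9 calls and a median of 115 CPM. Utp4 (listed as Cirh1a), a partner of Wdr43 and Wdr75 in the t-UTP complex, had 184, 192 and 188 CPM, and Imp3, of the U3 snoRNP, had 60.3, 55.3 and 64.4 CPM and varied (edgeR adjusted p = 0.0482). Dcaf13, the lowest of these 28 per kilobase of exon union but not of principal transcript, had 60.7 ± 2.03 CPM. The 31 further genes of 60S assembly and export had 8 calls and a median of 113 CPM, with Ftsj3, an rRNA methyltransferase, at 320 ± 4.75 CPM, Rsl1d1 at 298 ± 12.8 CPM (varying, edgeR adjusted p = 0.0139) and the export adapter Nmd3 at 62.9 ± 1.17 CPM (SD, n = 3). The 8 further polymerase I genes took fewer reads, with a median of 41.0 CPM, a highest level of 64.3 CPM (Polr1d) and 1 call. Znrd1, a small polymerase I subunit, had 19.2 ± 1.94 CPM and Taf1b, of SL1, had 18.6 ± 0.211 CPM.

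Among the 7 genes listed as partners of the snoRNPs 1 varied. It was Nop53 (listed as Gltscr2), with 228, 211 and 234 CPM (edgeR adjusted p = 0.00131). In yeast Nop53 brings the exosome to the pre-60S particle, so this call is not one of a snoRNP protein. None of the other genes of that list varied. The assembly ATPase Ruvbl2 had 179 ± 4.68 CPM and Shq1, a chaperone of dyskerin, had 17.8 ± 0.955 CPM. The 9 further genes of 40S maturation had 1 call. Tsr1 had 222, 222 and 219 CPM, Pno1 averaged 85.4 ± 2.50 CPM, and the dimethyltransferase Dimt1 averaged 11.9 ± 1.29 CPM. Of the 10 further RNA helicases 2 varied, and Ddx27 had 233 ± 8.21 CPM, Ddx56 had 123 ± 4.01 CPM and Ddx55 had 41.4 ± 2.02 CPM. The 18 genes of RNase MRP and the exosome, which trim and degrade precursor RNA, had 2 calls and a median of 42.6 CPM. Exosc10, the nuclear exonuclease of the exosome, had 156, 171 and 174 CPM and varied (edgeR adjusted p = 0.00096), Exosc3 had 42.6 ± 2.71 CPM and Rpp40 had 9.94 ± 0.937 CPM (SD, n = 3).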

How the data were processed

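The authors deposited raw read counts per gene symbol for 3 libraries, made with an Ion Proton RNA-seq kit per the labels' protocols, and the table held 0 columns of other samples. The submitters' processing notes name the build mm10. Not given in the sources used here are the aligner, counter, annotation, use of strand and rule for multi-mapping reads, so levels of genes that overlap or share sequence are uncertain. The total counts were 12669690 to 19041670.

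CPM used the column totals. The 3 libraries form 1 group, so edgeR's quasi-likelihood test between groups could not be run. Differences between libraries were tested over all genes that reached 1 CPM in 2 or more libraries with the likelihood-ratio test of edgeR 4.0.16 (TMM factors of 0.996 to 1.003, dispersion 0, Benjamini-Hochberg adjusted p), checked on simulated data. Ratios had 0.5 added to each count. Lengths, positions and shared 31-mers were taken from GENCODE vM21 on GRCm38, which mm10 also denotes, and to it 32250 of 44788 symbols matched, 1244 of them by a RefSeq synonym, and all 46 members. Alternatives used DESeq2 1.42.0 size factors, unscaled totals, other filters, other lengths, a chi-square test and each library left out. All members could be named, and of each pathway list the highest pair and the lowest gene by CPM per kilobase of exon union, together with genes inside members of at least 1 CPM. The members, lists and pairs were chosen with earlier results of these data known. R 4.3.3, Python 3.11.15, numpy 2.4.6, pandas 2.3.3, scipy 1.17.1 and matplotlib 3.10.9 were used.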

Additional observations from a re-analysis of the deposited data

How the results depend on the processing

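The lengths of the principal transcript and coding sequence and the adding of pseudogene copies were chosen after seeing the data. No paired analysis was possible because all 3 libraries belong to 1 group, and a DESeq2 likelihood-ratio test could not be run with 1 library per level. Normalization, filters and the chi-square test left the count of varying members at 12 to 14. Restricted to genes that share under 5% of their 31-mers, it was 7 of 31 members, 13 of 64 pathway genes and 915 of 7107 genes, against 12, 24 and 1847, with fewer genes tested. With a library left out the counts were 7 to 8 members, 10 to 14 pathway genes and 742 to 1193 genes. Ppan was lost without the filter on low counts (edgeR adjusted p = 0.0618). The median level of 180 CPM became 275 CPM as a mean over members and 186 CPM with mitochondrial genes and Rn18s-rs5 left out of the totals, and the summed share of 1.27% became 1.31% with these left out, 0.702% without members that share sequence and 1.35% with copies added. Log2 ratios that turned sign without length scaling were Dkc1 to Nhp2 (0.92, against -0.92 over the exon union), Dkc1 to Gar1 (1.14, against -0.12), Dkc1 to Nop10 (1.12, against -0.77), Ncl to Npm1 (1.36, against -0.58) and Polr1a to Polr1b (0.80, against -0.23). Over coding sequence Nop10 to Nhp2 (1.06, against -0.15), Ncl to Npm1 (0.0814), Polr1a to Polr1b (0.20) and Dkc1 to Gar1 (0.0039) turned. Dkc1 to Gar1 also turned over the longest and the principal transcript (0.0021 for both), and Fbl to Nop58 over the longest transcript (0.0495, against -0.58) and with copies added (1.24). Ncl to Npm1 over coding sequence was -0.67 with copies added. These turns follow from the lengths and the added reads.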

Other observations

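Transcript length was set beside the deviation of each library from the mean. Across the 10655 tested genes with a principal transcript, the rank correlation of deviation with length was 0.10, 0.12 and -0.21 in replicates 1, 2 and 3. Across the 46 members it was -0.10, 0.20 and -0.21. These are descriptions across genes of the same libraries. The part of length in the varying members was not tested.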
